A study of Homo sapiens with 6 samples.

Results

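Glucocorticoid receptor (GR) peaks were examined around 6 genes of the cell division cycle, 3 of them brakes (CDKN1A, CDKN1B and CDKN1C) and 3 drivers (MYC, CCND1 and CCND3). Peaks were taken when their centre lay in a fixed hg19 window that holds the gene body with about 50 kb on each side, and 42 of the 116356 peaks in the 12 deposited lists did so. In Mb, the windows were 36.59 to 36.71 on chromosome 6 for CDKN1A, 12.82 to 12.93 on chromosome 12 for CDKN1B and 2.85 to 2.96 on chromosome 11 for CDKN1C. For the drivers they were 128.69 to 128.81 on chromosome 8 for MYC, 69.40 to 69.52 on chromosome 11 for CCND1 and 41.85 to 42.07 on chromosome 6 for CCND3. The 4 groups of lists were the MR/GR cell with dexamethasone, the GR cell with dexamethasone, the MR/GR cell with vehicle and the GR cell with vehicle, each with 3 lists. Both lines are stable lines made from U-2OS, a human osteosarcoma line, and were grown in medium with serum. One line is named for GR and the other for GR together with the mineralocorticoid receptor (MR), a related receptor that binds many of the same DNA elements. Dexamethasone, a synthetic glucocorticoid, was given at 100 nM for 2 hr, and vehicle was DMSO. Chromatin of each group was immunoprecipitated with an antibody against GR, and input DNA made up the other two samples of the series. The GR-cell input is labelled with 100 nM and 2 hr, while the MR/GR-cell input carries no dose or time.

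Each receptor setting was 1 cell line, so the effect of MR and other differences between the lines cannot be told apart. The lists give the position of each peak without height, score or read count, so the depth is unknown, and where no peak stands, binding may be lacking or too weak for the authors' calling threshold. Whether the 3 lists of a group came from separate cultures is not given in the sources used here, and p-values therefore reflect list-to-list spread alone, possibly technical in origin. Expression, receptor amounts and the identity of the cells could not be checked from peak positions. The dexamethasone lists held 3713 to 10459 peaks in the MR/GR cell and 26191 to 37650 in the GR cell, while the vehicle lists held 11 to 132 in the MR/GR cell and 122 to 238 in the GR cell.

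Progress through the cell cycle depends on cyclins, which activate cyclin-dependent kinases, and on inhibitors that hold those kinases back. CDKN1A (p21), CDKN1B (p27) and CDKN1C (p57) are such inhibitors, the D-type cyclins CCND1 and CCND3 activate CDK4 and CDK6 in G1, and MYC is a transcription factor that promotes growth and entry into the cycle. Glucocorticoids slow the division of many cell types, and CDKN1A and CDKN1C are known glucocorticoid-induced genes in several of them. GR binds DNA after its ligand arrives, mostly far from promoters, at elements built from a pair of inverted half-sites.

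The 4 loci with repeatable GR binding were CDKN1A, CDKN1C, MYC and CCND3, and each kept 1 such site in the MR/GR cell. A site was a stretch of overlapping peaks, and a line was taken to hold it with a peak in at least 2 of its 3 dexamethasone lists. The 6 windows contained 14 sites, of which the MR/GR cell held 4 and the GR cell held 8, and all 4 sites of the MR/GR cell were among the 8 of the GR cell. Each of the 8 was in all 3 GR-cell lists. The remaining 6 sites, among them every site at CDKN1B and CCND1, were in GR-cell list 1 alone. Thus 57.1% of the 14 sites were in all 3 GR-cell lists, near the 55.3% of the 41453 GR-cell sites of the genome. Sites in 1 GR-cell list made up 42.9%, against 26.7% in the genome, and those in 2 lists 0%, against 17.9%. The MR/GR cell held a site in 4 of 6 windows, against 17.3% of 25278 fixed tiles of 120 kb over the genome, and the GR cell did in 4 of 6 windows, against 58.6% of the same tiles. With tiles of 220 kb, the width of the CCND3 window, the shares of tiles were 27.8% and 75.6%. Tiles were laid without regard to genes, so they are not matched to the windows in gene content.

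**Figure D1:**
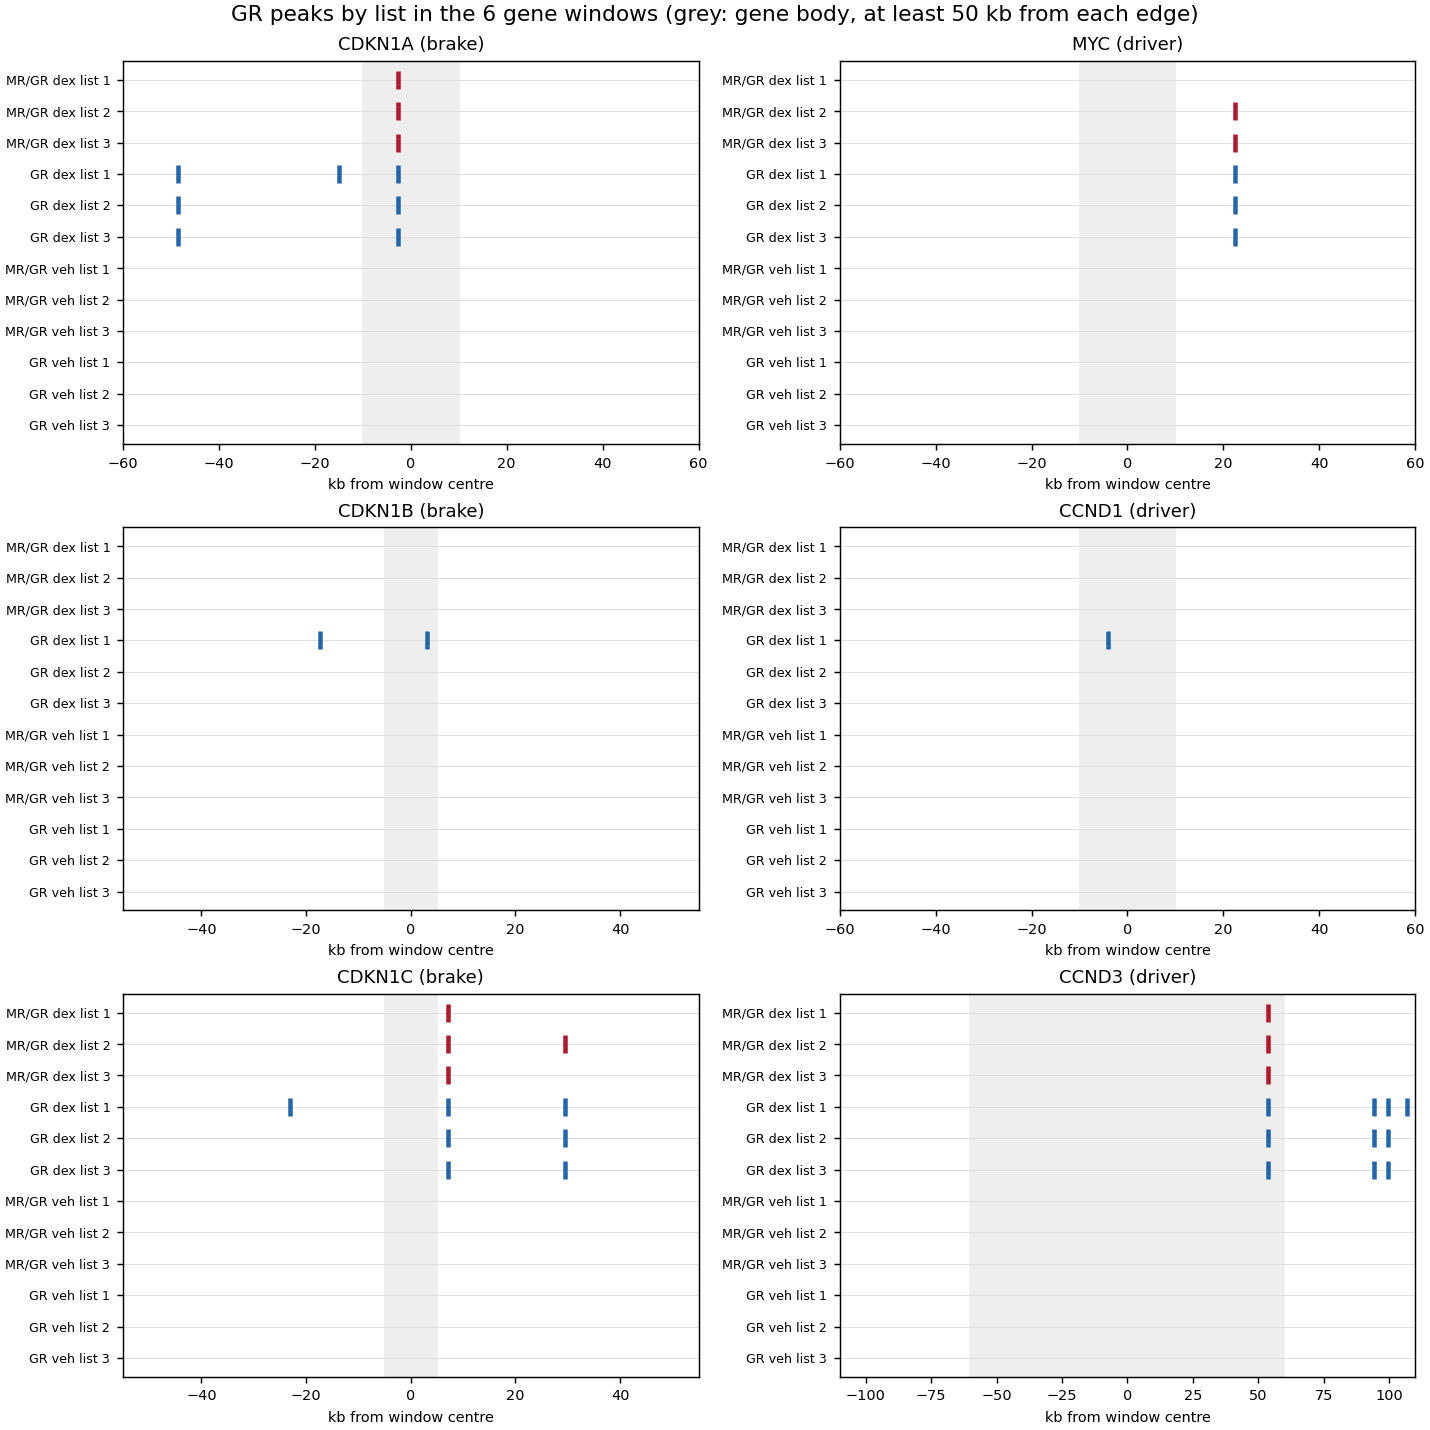
Positions of GR peak centres (x axis, kb from the centre of each window) in the 12 lists (rows) around the 6 genes, with brakes in the left column and drivers in the right. Grey marks the gene body part, at least 50 kb from each window edge. Marks line up in columns where lists share a site, the 6 vehicle rows are empty in every window, and CDKN1B and CCND1 have marks in GR-cell list 1 alone.

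CDKN1A, the p21 inhibitor that also carries out cell cycle arrest after p53 activation, had its shared site within the gene body part of the window, at chr6:36647124-36647547. That site was in 3 of 3 MR/GR-cell lists and 3 of 3 GR-cell lists, and its 6 peak centres lay within 75 bp of one another. A second site at chr6:36601214-36601637, which lies 38.6 kb outside the gene body part on the 5′ side of the gene, was in no MR/GR-cell list and in all 3 GR-cell lists. Another, at chr6:36634760-36635113 and 5.06 kb outside, was in GR-cell list 1 alone. The window thus had 1, 1 and 1 peaks in MR/GR-cell lists 1 to 3, against 3, 2 and 2 in GR-cell lists 1 to 3. The lists of the lines did not overlap, with 1.00 ± 0 peaks in the MR/GR cell and 2.33 ± 0.577 in the GR cell (SD, n = 3 lists each), a difference of -0.72 in log2(peaks + 1) (exact permutation p = 0.1, two-sided). MR/GR-cell lists all lay below GR-cell lists in 55% of the 17436 tiles of 120 kb with a treated peak as well. The separation at CDKN1A depended on the window: the difference was -0.19 (exact permutation p = 1) with 25 kb taken off each side, and -0.77 (exact permutation p = 0.2) with 50 kb added.

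CDKN1C, the p57 inhibitor, an imprinted gene, had its shared site just beyond the gene body part. The site at chr11:2911844-2912269, 2.06 kb outside on the side of higher coordinates, was in 3 of 3 MR/GR-cell lists and 3 of 3 GR-cell lists, with centres within 36 bp. Farther out on the same side, 24.5 kb from the gene body part, the site at chr11:2934242-2934693 was in 1 MR/GR-cell list (list 2) and in 3 GR-cell lists. It is the one site of the GR cell in the 6 windows that had a peak in a single MR/GR-cell list. The site at chr11:2881699-2882052 was in GR-cell list 1 alone. Peaks per list were 1, 2 and 1 in the MR/GR cell, against 3, 2 and 2 in the GR cell, and the lists of the lines overlapped at 2 peaks (log2 difference -0.53, exact permutation p = 0.3, two-sided).

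CDKN1B, the p27 inhibitor, had no site that either line held. No MR/GR-cell list had a peak in its window, and the GR cell had 2, 0 and 0 peaks in lists 1 to 3. Of the 2 peaks of list 1, one lay in the gene body part at chr12:12877949-12878302 and the other 12.3 kb outside it at chr12:12857495-12857848. Both were missing from lists 2 and 3, so the exact permutation p was 1 (log2 difference -0.53, two-sided). With peaks in a single list, every arrangement gives the same absolute difference, and the test cannot decide whether the lines differ. The gene body part is set from the window edges and not from annotation, so it may reach past the gene. By the gene order of GRCh38.p14, APOLD1 is the next protein-coding gene above, so the peak at chr12:12877949-12878302 need not belong to CDKN1B. The nearest site that the GR cell held was 8.4 kb beyond the window, at chr12:12938187-12938610, in no MR/GR-cell list and 3 GR-cell lists.

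MYC had 1 site, outside its gene body part. The site at chr8:128772210-128772633 lay 12.4 kb beyond that part on the side of higher coordinates. It was in MR/GR-cell lists 2 and 3 and not in list 1, the shortest, and in all 3 GR-cell lists. Peaks per list were 0, 1 and 1 in the MR/GR cell, against 1, 1 and 1 in the GR cell (log2 difference -0.33, exact permutation p = 1, two-sided). Since a single list differed from the rest, every arrangement gives the same absolute difference, and the test cannot decide whether the lines differ. With the window widened by 50 kb on each side the difference was -0.90 and the lists of the lines no longer overlapped (exact permutation p = 0.1), and without MR/GR-cell list 1 it was 0. Its 5 peak centres lay within 45 bp. No list had a peak in the MYC gene body part.

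CCND1, the cyclin D1 gene, had a single peak in all 12 lists. It was in GR-cell list 1 at chr11:69455715-69456068, inside the gene body part. The MR/GR cell had 0, 0 and 0 peaks in the window, against 1, 0 and 0 in the GR cell (log2 difference -0.33, exact permutation p = 1, two-sided). With a peak in a single list, every arrangement of the lists gives the same absolute difference. The test therefore cannot decide whether the lines differ here. The nearest sites that the GR cell held lay 51.1 kb below and 39.3 kb above the window, at chr11:69348726-69349149 and chr11:69559135-69559558. Both were in 2 MR/GR-cell lists and 3 GR-cell lists.

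CCND3, the cyclin D3 gene, had the most sites and the widest window, at 220 kb. The site at chr6:42013401-42013824, inside the gene body part, was in 3 of 3 MR/GR-cell lists and 3 of 3 GR-cell lists, with centres within 24 bp. A pair of sites on the 5′ side of the gene, at chr6:42053979-42054402 and chr6:42059523-42059946, lay 34.2 and 39.7 kb outside the gene body part. Each of the pair was in no MR/GR-cell list and in 3 GR-cell lists. A last one at chr6:42066599-42066952 was in GR-cell list 1 alone. Peaks per list were 1, 1 and 1 in the MR/GR cell, against 4, 3 and 3 in the GR cell, with no overlap between the lines (log2 difference -1.11, exact permutation p = 0.1, two-sided). Such a separation, with the MR/GR cell lower, was also present in 55% of the 17436 tiles of 120 kb with a treated peak. These tiles are narrower than the CCND3 window, and the share was not taken for tiles of 220 kb. The difference was 0 in a window narrowed by 25 kb on each side, which leaves out the 5′ sites. By the gene order of GRCh38.p14, TAF8 is the next protein-coding gene on that 5′ side, so the outer sites need not belong to CCND3.

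**Figure D2:**
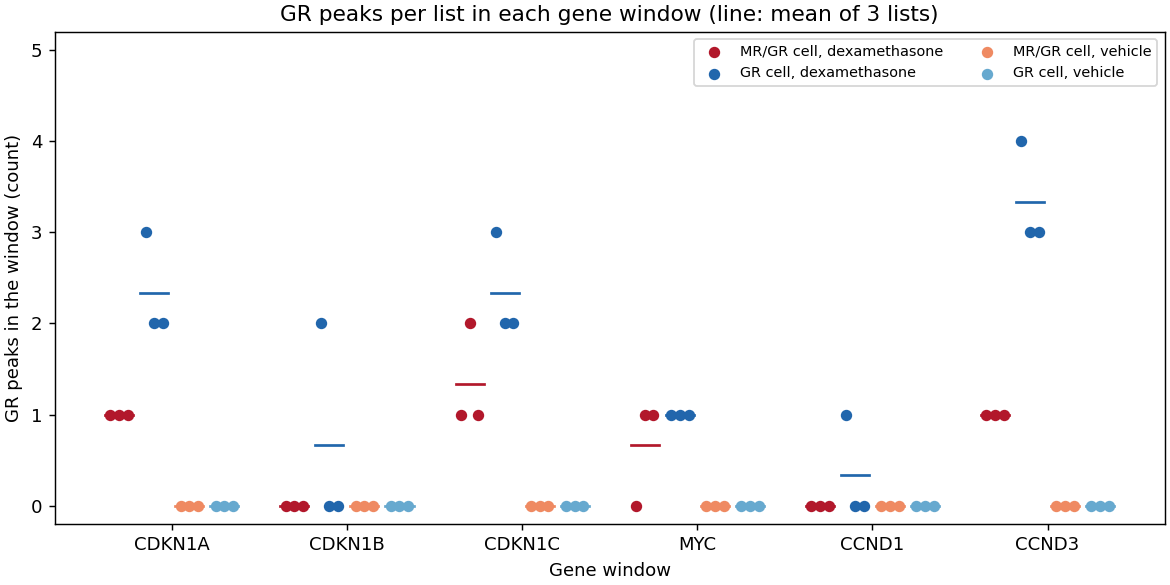
GR peaks per list (y axis, count) in each gene window (x axis). Points are single lists, 3 per group, and lines are group means, with the groups coloured as in the legend. The MR/GR and GR dexamethasone lists do not overlap at CDKN1A and CCND3, they share a value at the other 4 genes, and all vehicle lists are at 0. Over the genome, MR/GR lists are all below GR lists in 55% of the 17436 tiles of 120 kb with a treated peak. The CCND3 window is wider than these tiles, at 220 kb.

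The sequence next to the start of transcription is shown for 3 members, to set genes with and without a held GR site side by side: CDKN1A and CCND3, each with a GR site in the gene body part in both lines, and CDKN1B, with none held by either line. The sequences are from RefSeq (GRCh38.p14) and run from 250 bases before to 50 bases after a start. Of the members, 3 of 6 matched the promoter table, and for CCND3 the start with the highest coordinate of its 3 is given. Capitals mark the GC box GGGCGG on either strand, the element bound by Sp-family factors.
CDKN1A (GRCh38.p14 chr6:36678464-36678763, plus strand): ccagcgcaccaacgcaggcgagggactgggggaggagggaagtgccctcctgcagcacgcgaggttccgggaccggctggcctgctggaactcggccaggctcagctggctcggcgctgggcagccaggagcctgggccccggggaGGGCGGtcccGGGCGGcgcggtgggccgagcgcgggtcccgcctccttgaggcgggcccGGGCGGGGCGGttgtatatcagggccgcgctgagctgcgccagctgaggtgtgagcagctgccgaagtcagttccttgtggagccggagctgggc
CDKN1B (GRCh38.p14 chr12:12717118-12717417, plus strand): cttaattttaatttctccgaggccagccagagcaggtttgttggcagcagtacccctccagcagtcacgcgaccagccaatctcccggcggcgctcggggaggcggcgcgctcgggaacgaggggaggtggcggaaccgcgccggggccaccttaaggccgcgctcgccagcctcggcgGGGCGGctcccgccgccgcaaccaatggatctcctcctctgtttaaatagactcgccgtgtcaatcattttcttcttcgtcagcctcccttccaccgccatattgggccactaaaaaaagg
CCND3 (GRCh38.p14 chr6:42048639-42048938, minus strand): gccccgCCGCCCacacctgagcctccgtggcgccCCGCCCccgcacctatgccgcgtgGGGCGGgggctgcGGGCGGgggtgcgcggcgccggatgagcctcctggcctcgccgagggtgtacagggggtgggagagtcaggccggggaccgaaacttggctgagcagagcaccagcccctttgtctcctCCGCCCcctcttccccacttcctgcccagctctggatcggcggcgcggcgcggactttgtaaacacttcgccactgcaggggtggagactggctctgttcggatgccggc

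These stretches held 4 GC boxes at CDKN1A, 1 at CDKN1B and 5 at CCND3, overlapping matches counted apart, and 45% of the 35116 promoters in the table hold at least 1. The other CCND3 starts had 4 and 0 GC boxes, so the count depends on the start shown. Differences in GC boxes between genes with and without a held GR site were not tested. The GR half-site AGAACA, searched on both strands, was in none of the 3 stretches, and 14.8% of all promoters hold it. The inverted repeat of half-sites, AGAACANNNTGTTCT, was in none of them either, and in 1 promoter of the table (0.00285%). The peaks are placed on hg19 and these starts on GRCh38.p14, so no peak was set against a promoter.

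Inside the windows, the sites that the MR/GR cell held were, of the 8 GR-cell sites, the 4 nearest to the gene body part of their window. These sites, at CDKN1A, CDKN1C, MYC and CCND3, lay 0, 2.06, 12.4 and 0 kb outside the gene body part of their window. The 4 sites that the GR cell held and the MR/GR cell did not lay 24.5 kb (CDKN1C), 34.2 and 39.7 kb (CCND3) and 38.6 kb (CDKN1A) outside it. This order did not extend beyond the windows, since the sites 51.1 kb below and 39.3 kb above the CCND1 window, farther out than any of these, were held by the MR/GR cell. Of the GR-cell sites, the MR/GR cell held 4 of 5 with windows narrowed by 25 kb on each side and 4 of 8 in the windows as given. It held 9 of 21 with windows widened by 50 kb on each side. Over the genome it held 17.9% of the 30365 sites that the GR cell held. The sets of windows are nested, so their counts are not separate shares by distance. The order by distance describes 8 sites at 4 loci, was noticed in these data, and was not tested. Distances run from edges set by the windows and not by annotation, so distances to the genes themselves can differ.

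Of the 8 sites in every GR-cell list, 4 (50%, Wilson 95% interval 21.5 to 78.5) were held by the MR/GR cell, against 22.5% of the 22935 such sites in the genome. No MR/GR-cell list had a peak at 3 of the 8 (37.5%, 13.7 to 69.4), against 65.6% in the genome. In the other direction, the GR cell held 4 of the 4 sites of the MR/GR cell, against 90.9% in the genome. MR/GR-cell lists 1 to 3 had 3, 5 and 4 of the 8 sites (37.5%, 62.5% and 50%), against 14.5%, 30.9% and 24.6% of the 22935. The order of the lists was the same in the windows and in the genome, and each interval for the windows includes the genome's value. Intervals cover counting error alone, and sites of one locus are not independent.

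**Figure D3:**
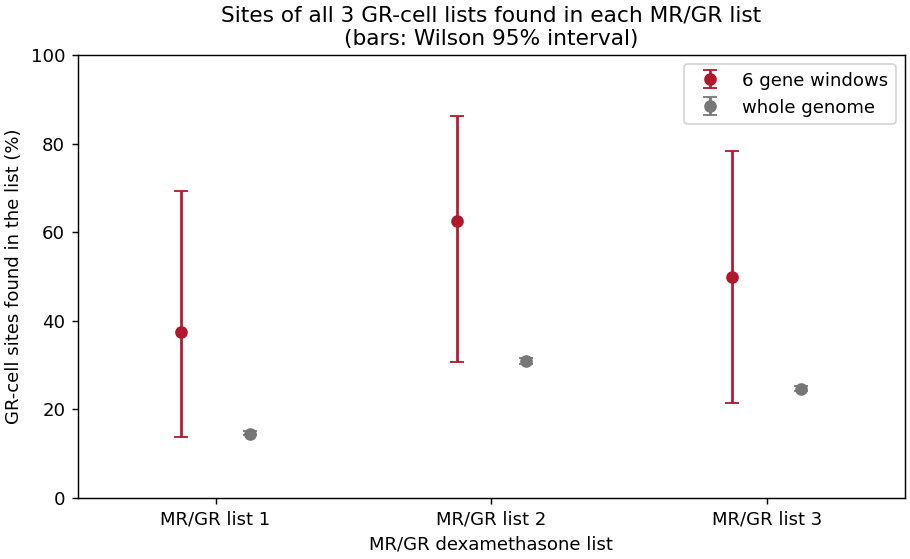
Percent of sites with a peak in every GR-cell list that each MR/GR-cell dexamethasone list also has (y axis), for the 8 sites of the 6 windows (red, left) and the 22935 sites of the genome (grey, right). Bars are Wilson 95% intervals; the red points are above the grey in each list, and the red bars reach down to the grey points.

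The share of sites held was set side by side for brakes and drivers. The MR/GR cell held 2 of 4 GR-cell sites at the brakes (CDKN1A and CDKN1C) and 2 of 4 at the drivers (MYC and CCND3), a difference of 0 percentage points with a Newcombe 95% interval from -49.5 to 49.5, too wide to show that the groups are alike. This interval also covers counting error alone and treats sites of one locus as independent, which they are not. The difference took either sign with other windows or other numbers of lists, from -33.3 points in narrowed windows to 25 with all 3 lists required. No MR/GR-cell list had a peak at 1 of 4 sites of the brakes and 2 of 4 of the drivers. Neither line held a site at CDKN1B among the brakes or at CCND1 among the drivers. Sites in GR-cell list 1 alone numbered 4 at the brakes and 2 at the drivers.

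Over all 6 windows, the MR/GR cell had 3, 5 and 4 peaks in dexamethasone lists 1 to 3, against 14, 8 and 8 in the GR cell. The means were 4 ± 1 and 10 ± 3.46 peaks (SD, n = 3 lists each), a difference of -1.11 in log2(peaks + 1) (SE 0.30, exact permutation p = 0.1, two-sided). That is the smallest p that 3 lists against 3 allow. With windows narrowed by 25 kb on each side the difference was -0.57 and the lists overlapped (exact permutation p = 0.3). Over all peaks of the same lists the difference was -2.29 (SE 0.46). Every MR/GR-cell list was below every GR-cell list at 2 of 6 genes, CDKN1A and CCND3. The same was so in 55% of the 17436 tiles of 120 kb with a treated peak, which are narrower than the CCND3 window. After Benjamini-Hochberg adjustment over the 17442 tiles and windows, the exact permutation p of 0.1 became 0.182 for both genes, and that of CDKN1C became 0.485.

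As a share of the list, the windows took more of every MR/GR-cell list than of any GR-cell list. Per 10000 peaks of a list, 8.08, 4.78 and 6.01 lay in the 6 windows in MR/GR-cell lists 1 to 3, against 3.72, 2.59 and 3.05 in GR-cell lists 1 to 3. The lists of the lines did not overlap, and the means were 6.29 ± 1.67 and 3.12 ± 0.568 (SD, n = 3 lists each), a difference of 3.17 (two-sided exact permutation p = 0.1, the lowest this design can give). It was 6.31 with windows widened by 50 kb on each side. All 3 MR/GR shares were above all 3 GR shares at 2 of 6 genes, CDKN1A and CDKN1C. The same was so in 11.4% of the 17436 tiles of 120 kb with a treated peak. The share was highest in MR/GR-cell list 1, the shortest at 3713 peaks, and the part of list length in the difference was not tested.

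**Figure D4:**
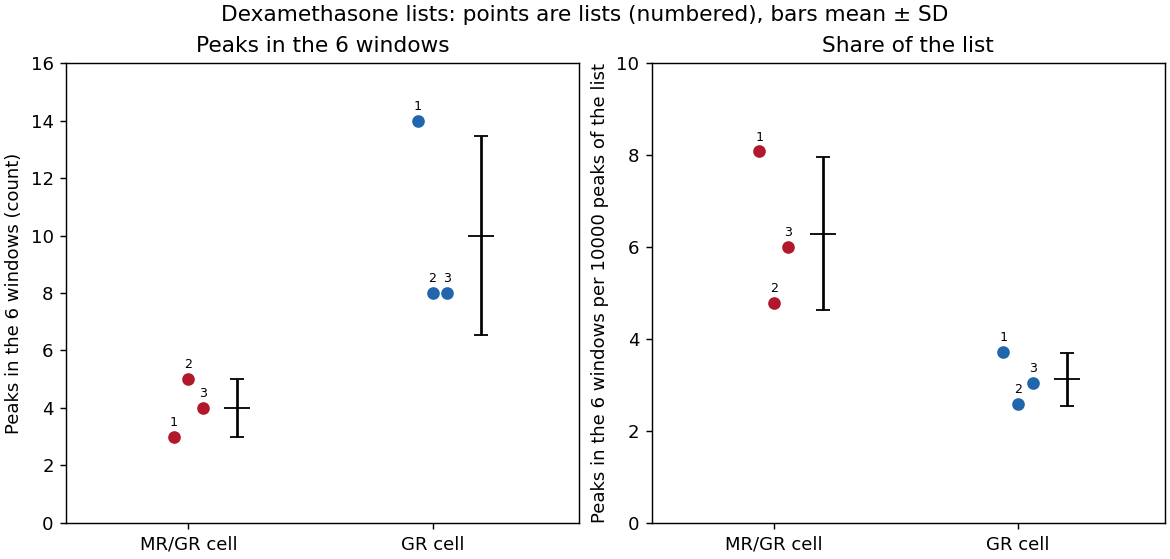
Peaks in the 6 windows with dexamethasone, as a count (left panel) and per 10000 peaks of the list (right panel), for the MR/GR cell and the GR cell. Points are lists, numbered, with mean ± SD beside them. The MR/GR cell is lower in the count (3 to 5 against 8 to 14) and higher in the share of the list (4.78 to 8.08 against 2.59 to 3.72).

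With vehicle no peak was listed in any of the windows. The 3 MR/GR-cell vehicle lists had 0 of their 183 peaks there, and the 3 GR-cell vehicle lists had 0 of 588. Of the 25278 tiles, 2.27% had a vehicle peak in any of the 6 lists, so an empty set of 6 windows is near the background. Every treated list was above every vehicle list at 3 of 6 genes in the MR/GR cell (CDKN1A, CDKN1C and CCND3). The same was so in 15.2% of the 17436 tiles of 120 kb with a treated peak. In the GR cell it was so at 4 of 6 genes (those 3 and MYC), against 73.6% of the same 17436 tiles. Over the 6 windows together the two-sided exact permutation p was 0.1 in each line, again the lowest value, with the vehicle lists listed at 0. The difference between the lines' responses, -1.11 in log2(peaks + 1), equals the difference between the treated lists because all vehicle counts are 0 (exact permutation p = 0.1, two-sided), and it was likewise -0.57 in the narrowed windows (exact permutation p = 0.3). The nearest vehicle peaks of the GR cell lay 0.335 Mb from the CCND1 window and 0.379 Mb from the MYC window.

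Membership depended on the window edges at several genes. Just inside, the CCND3 site of GR-cell list 1 lay 3.23 kb from the edge and the outer 5′ sites of CCND3 and CDKN1A lay 10.3 and 11.4 kb from it. Just outside, the GR cell held sites 3.07 kb below the CDKN1C window and 3.91 kb above the MYC window, each in no MR/GR-cell list and 2 GR-cell lists. A site 5.49 kb below the MYC window was in no MR/GR-cell list and 3 GR-cell lists. Sites that appeared in 1 GR-cell list came from list 1 in 6 of 6 cases, and in the genome list 1, the longest, supplied 70.9% of 11088 such sites.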

How the data were processed

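GR ChIP-seq of 4 immunoprecipitated samples was used, each with 3 peak lists; 2 input samples had no list used here. The authors deposited each list as chromosome, start and end on hg19, with no score; the names mark each list as set against input. Per the submitters' processing notes, the tools were HOMER 4.8.3, Picard 1.115, SAMtools 1.3.1, Trim Galore 0.4 and Bowtie, and their settings, the calling threshold and the input of each list are not given in the sources used here. Depth is unknown; PCR duplicates could change the peaks called.

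Peaks were assigned to windows by centre, and sites were merged from peaks of all 12 lists overlapping by at least 1 bp (for the genome, of the 6 dexamethasone lists). Coordinates are counted from 1. Gene bodies were taken as the part at least 50 kb from the window edges, since no hg19 annotation was used here. That part may reach past a gene or fall short of it, so positions given against it are approximate. Groups of lists were compared by two-sided exact permutation tests of log2(peaks + 1), with 20 arrangements for 3 lists against 3 and 400 for the difference of responses. Tiles of 120 kb covered chromosomes 1 to 22 and X. Tiles of 220 kb and the share of list per tile were added after seeing the data.

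The rule for named sites took all sites the MR/GR cell held, vehicle peaks, and sites that every GR-cell list had and the MR/GR cell lacked; the 1 further site held by the GR cell and the 6 of GR-cell list 1 alone were named after their values were seen. Members and lists were chosen with earlier results of these data known. Other cell cycle genes planned for were not analysed here, since their hg19 positions were not at hand. Peak sequences were not printed for the same reason. Alternatives changed the pseudocount, window edges, merging, number of lists per site and lists used. Python 3.11.15, numpy 2.4.6, SciPy 1.17.1 and matplotlib 3.10.9 were used, and site merging, tile counts and tests were tested on simulated data.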

Additional observations from a re-analysis of the deposited data

How the results depend on the processing

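Of 154 alternatives, 149 were counted as kept, meaning the same direction and side of 0.05 for a test and a change within a fixed ratio or interval for a count or share. Tests of 3 lists against 3 cannot pass 0.05, so size has to be read beside that count. The window edges moved the values most. The line difference over the 6 windows, -1.11, and the difference of responses were each -0.57 (exact permutation p = 0.3) in windows narrowed by 25 kb and -1.24 (exact permutation p = 0.1) in windows widened by 50 kb, and the share difference was 4.23 and 6.31 per 10000 peaks. In narrowed windows CDKN1A was at -0.19. In widened ones the gene differences were -0.90 at MYC, -1 at CDKN1B, -0.53 at CCND1 and -0.76 at CDKN1C, where the lists then no longer overlapped (exact permutation p = 0.1). With windows widened by 50 kb on each side, the MR/GR cell held 9 of 21 GR-cell sites (42.9%) in place of 4 of 8. Leaving out 1 list gave 3 to 4 held sites, with 3 of 8 (37.5%) without MR/GR-cell list 2 or 3. Over the 30365 sites of the genome that the GR cell held, these shares were 10.5% and 10.9%, against 17.9% with all lists. With 1 list of a line left out, a held site needed a peak in both remaining lists of that line. Leaving out 1 list moved the line difference over the 6 windows between -1.25 and -0.87 (log2), the share difference between 2.27 and 3.92 per 10000 peaks, and the brake-minus-driver difference between 0 and 25 percentage points. That difference, 0 as reported, has no direction to keep: it was -33.3 in narrowed and -5.45 in widened windows, and 25 with all 3 lists and 4.17 with at least 1 list required. The difference was 0 without GR-cell list 1 at CDKN1B and CCND1, without MR/GR-cell list 1 at MYC, and in the narrowed window at CCND3, which then holds just the shared site. No label ties list numbers across groups. With list numbers used as a replicate block, the exact sign-flip p was 0.25 (two-sided) for the line difference of -1.11, the share difference of 3.17 and both responses, the smallest that 3 pairs allow. Neither form of the test can pass 0.05, so no call could change. Few peaks per window and unknown depth limit every value.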
